A study of Mus musculus with 24 samples.

Results

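Aorta was compared with stomach in mice carrying a SENCR bacterial artificial chromosome, a transgene with the locus of a human long non-coding RNA. The comparison used the 3 aorta libraries (SENCR-BAC-aorta, replicates 1 to 3) and the 3 stomach libraries (SENCR-BAC-stomach, replicates 1 to 3) of a series of 24 bulk RNA libraries from 8 tissues. The sample titles and the series title name this transgene, while the library names read SR-KI, which the labels do not explain, and the titles were followed here. Both groups carried the transgene by these titles, and the labels name no untreated or transgene-free animals. The age, sex and strain of the animals, the layer of the stomach that was taken, and which libraries share an animal are not stated. The p-values therefore measure only the spread between libraries. In the limma fits this spread within tissues was estimated over all 24 libraries of the 8 tissues, except in the fit of 6 libraries. Values were FPKM, a fragment count per gene divided by gene length and by library depth, of 7493 genes with human symbols, because the mouse reads had been counted on a human genome. Levels of different genes are therefore not on one footing, and each gene was compared between the tissues on the log2(FPKM + 1) scale, as aorta minus stomach.

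The wall of the aorta is built of layers of vascular smooth muscle between elastic sheets, lined by endothelium and wrapped in an adventitia of fibroblasts. The stomach wall holds visceral smooth muscle with its own nerve plexus, under a mucosa of glandular epithelium, which in the mouse is joined by a squamous forestomach. Both kinds of muscle contract through actin and smooth muscle myosin, and adult vascular muscle is known for the actin ACTA2 while visceral muscle is known for the actin ACTG2. Serum response factor (SRF), with its coactivators, binds the CArG box in front of many contractile and cytoskeletal genes of both.

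Between 414367 and 430269 reads had been assigned in an aorta library and between 269941 and 332406 in a stomach library, numbers read off the step size of each gene's FPKM. Across genes, libraries of the same tissue correlated at r = 0.944 to 0.952 and an aorta with a stomach library at 0.853 to 0.872. Aorta replicates 1 and 3 stood apart in reads of mitochondrially encoded genes, with 363 and 216 reads, against 6 in aorta replicate 2 and 1, 3 and 5 in the stomach libraries. Results are therefore also given without aorta replicates 1 and 3, where the lone aorta library was assumed to vary like the others. Epithelial genes were read mainly in stomach. The 16 general epithelial genes of the table summed to 44.1, 26.5 and 42.1 FPKM in the aorta libraries, against 344, 338 and 345 FPKM in the stomach libraries. The part of this epithelium in the differences of muscle genes was not tested.

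The promoters of Acta2 and Vcl, the mouse genes of the vascular actin and of the adhesion protein vinculin, are shown because both genes were higher in aorta and both carry CArG boxes, written in capitals. The sequences are from RefSeq on GRCm38.p6, from 250 bases before to 50 bases after the gene start. The Acta2 window is chr19:34255324-34255623 on the minus strand and the Vcl window is chr14:20929148-20929447 on the plus strand.
Acta2: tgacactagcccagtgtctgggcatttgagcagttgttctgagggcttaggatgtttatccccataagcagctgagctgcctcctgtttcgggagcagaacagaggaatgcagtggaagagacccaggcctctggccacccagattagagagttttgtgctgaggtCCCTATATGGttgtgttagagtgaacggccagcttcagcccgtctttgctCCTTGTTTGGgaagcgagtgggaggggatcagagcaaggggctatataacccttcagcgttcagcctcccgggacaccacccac
Vcl: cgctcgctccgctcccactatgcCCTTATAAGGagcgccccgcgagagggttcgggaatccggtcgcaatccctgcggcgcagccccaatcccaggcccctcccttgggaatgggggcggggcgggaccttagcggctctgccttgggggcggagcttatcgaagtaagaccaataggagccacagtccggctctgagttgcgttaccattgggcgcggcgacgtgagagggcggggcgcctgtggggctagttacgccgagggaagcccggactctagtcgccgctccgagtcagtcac
The boxes of Acta2 begin 84 and 34 bases upstream of the start and differ from the CArG box by 1 letter each, and the box of Vcl begins 227 bases upstream and matches it. The motif was searched by its letters in the 250 upstream bases, and since it reads the same way on both strands, 1 search covers them. Of 32851 mouse promoters, 1.63% held an exact box and 9.98% held one that was exact or 1 letter off. Among 9 contractile genes that were tested and have a promoter sequence, 1 held an exact box and 3 held either kind. Among 15 cytoskeletal and adhesion genes, 3 held an exact box and 6 held either kind. Some of these 15 genes have more than 1 promoter sequence and a box in any of them counted, so their shares are not on one footing with those of single promoters. A match describes the letters and is not a binding site. Boxes were also found in genes that did not rise. Actg1 held an exact box and was not called, and Tpm3, which fell, held boxes that were 1 letter off. Smtn and Mylk, which rose, held neither kind.

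The 2 actins ran in opposite directions. ACTA2 was at 53.3, 47.6 and 44.0 FPKM in the aorta libraries, against 1.89, 4.99 and 2.05 FPKM in the stomach libraries. Every aorta library lay above every stomach library, and the difference was 3.71 (95% interval 3.12 to 4.31, limma adjusted p = 5.04e-09), a 16.2-fold ratio of the means. The stomach values rest on 5 reads in all, against 110 in aorta. ACTG2 was at 53.0, 55.7 and 75.6 FPKM in aorta, against 212, 192 and 165 FPKM in stomach, again with no overlap. Its difference was -1.62 (95% interval -2.70 to -0.55, limma adjusted p = 0.0221). That call ended without aorta replicate 1 (-1.53, adjusted p = 0.0678), aorta replicate 2 (-1.56, 0.0628), stomach replicate 1 (-1.54, 0.0667) or stomach replicate 2 (-1.61, 0.0549), and without aorta replicates 1 and 3 (-1.74, 0.144). Of the contractile genes, ACTG2 and DES (desmin, below) were the 2 called lower. Only 1 of them was called with a pseudocount of 0.1 or 5 in place of the added 1. The same held with TPM scaling, which sets an equal sum for every library. In bulk tissue, fewer cells of a type and less RNA per cell cannot be told apart.

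Within a library the ratio of the 2 actins does not depend on how libraries were scaled. ACTG2 over ACTA2 was 0.994, 1.17 and 1.72 in the aorta libraries, against 112, 38.5 and 80.7 in the stomach libraries. The mean ratio was 1.29 ± 0.376 in aorta and 77.1 ± 36.9 in stomach (SD, n = 3 each). On the log2 scale of FPKM + 1 it differed by -5.33 (exact two-sided permutation test, p = 0.1, the smallest p that 3 against 3 libraries can give). Pooled over libraries, the ratio was 1.27 in aorta (exact 95% binomial interval of the reads 0.970 to 1.66) and 61.7 in stomach (26.1 to 192), intervals that cover counting error only. Lung had the next highest ACTG2 (11.5, 21.5 and 13.8 FPKM), and no library of heart, kidney or brain had a read of either actin. Actin genes are alike in sequence, so reads of one can have been counted for another.

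**Figure D1:**
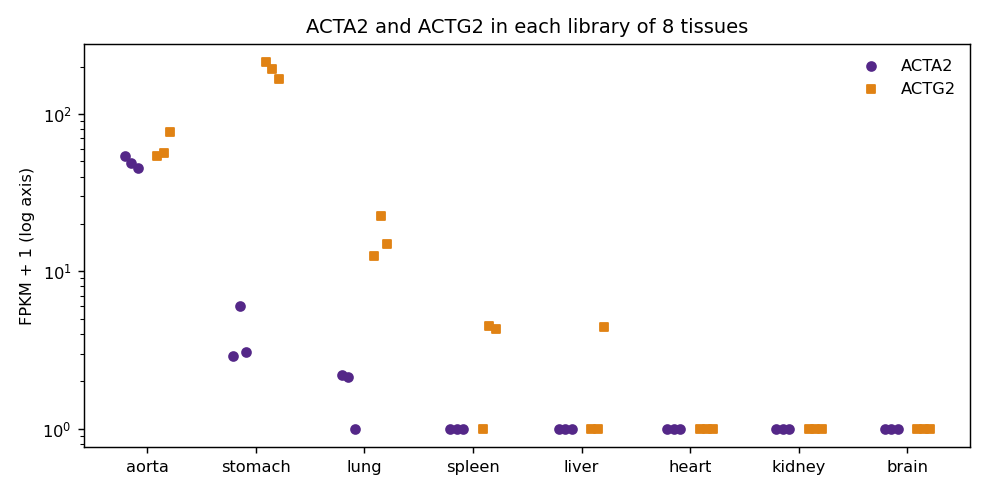
ACTA2 (circles) and ACTG2 (squares) as FPKM + 1 on a log axis in each of the 3 libraries of 8 tissues, with aorta first and stomach beside it. In aorta the 2 genes lie at 44.0 to 75.6 FPKM, whereas in stomach ACTG2 is at 165 to 212 FPKM and ACTA2 at 1.89 to 4.99 FPKM.

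Of the 4260 genes tested, those with at least 1 FPKM in at least 3 of the 24 libraries, 459 (10.8%) were called higher in aorta and 448 (10.5%) lower, where a call needs both an adjusted p below 0.05 and a difference of 1 or more. Median-ratio scaling, which moved the median difference of the 2909 genes that reached 1 FPKM in 3 or more of these 6 libraries from -0.10 to 0.12, gave 555 higher and 306 lower (64.5% of calls higher, against 50.6%). The 3 aorta values and the 3 stomach values did not overlap in 36.4% of the genes tested. A fit of the 6 libraries alone called 310 higher (7.28%) and 326 lower (7.65%), and without aorta replicates 1 and 3 the numbers were 287 (6.74%) and 318 (7.46%). Of the genes higher in aorta, 92 had no stomach read, and 207 (45.1%) had their highest mean of all 8 tissues in aorta. Of the genes lower in aorta, 52 had no aorta read, and 156 (34.8%) had their highest mean in stomach; a call in the same direction favours both counts. Of 72 cytosolic ribosomal protein genes in the table, which every cell uses, 5 had no read in aorta and 42 had none in stomach, so a gene without reads here is not shown to be unexpressed. A gene that passed the filter only through the tissue where it is high had to differ, so the counts below describe the lists and carry no test. Where no share is repeated, 10.8% higher and 10.5% lower are the shares to set beside the counts of a list.

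**Figure D2:**
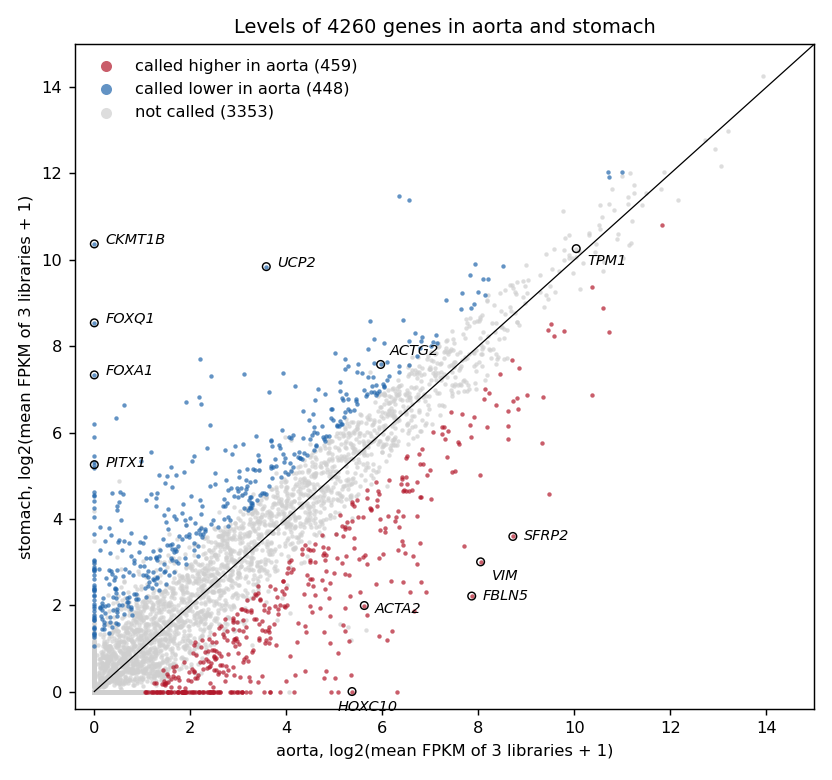
Mean level of each of 4260 genes in aorta (x axis) and stomach (y axis), as log2 of the mean FPKM of 3 libraries plus 1, with the line of equal levels. Genes called higher in aorta (459) lie below the line and genes called lower (448) above it, and CKMT1B, FOXQ1, FOXA1 and PITX1 lie on the left edge with no aorta read.

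The 12 genes with the largest differences towards aorta were of several kinds. FBLN5, the elastic fibre protein fibulin-5, was at 255, 236 and 204 FPKM in aorta, against 5.10, 3.59 and 2.21 FPKM in stomach. This was the largest difference of all genes called higher (5.69, 95% interval 4.89 to 6.49, limma adjusted p = 6.95e-10). SFRP2, a secreted WNT modulator of fibroblasts, was at 468, 473 and 319 FPKM in aorta, against 13.7, 12.1 and 7.42 FPKM in stomach (difference 5.14). VIM, the intermediate filament protein of mesenchymal cells, was at 246, 309 and 235 FPKM in aorta, against 4.75, 11.2 and 5.15 FPKM in stomach (5.12). In all of these the lowest aorta library was many times the highest stomach library. CCN1, a matricellular protein, averaged 712 ± 244 FPKM in aorta and 22.9 ± 12.8 in stomach (difference 4.96). The small GTPase RASL12 (4.95), the protocadherin PCDH7 (4.84) and GABRA3, a subunit of the GABA-A receptor (4.81), also belonged to the 12 genes with the largest differences towards aorta. So did the integrin subunit ITGB1, at 82.1, 114 and 117 FPKM in aorta, against 0, 0 and 20.3 FPKM in stomach. Its difference was 5.23 (adjusted p = 7.32e-05), and in the fit of 6 libraries its adjusted p was 0.0535. The mitochondrial COX1 (5.02) ranked among them through aorta replicates 1 and 3, and its difference was 2.01 (adjusted p = 0.348) without them.

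Several of the 12 genes with the largest differences towards stomach had no read in aorta. CKMT1B, a mitochondrial creatine kinase with the near-identical human copy CKMT1A, had no read in aorta, against 1446, 1131 and 1385 FPKM in stomach (difference -10.36, limma adjusted p = 1.39e-15). Taking 3 reads per library as the floor for a gene without reads, it was at least 419.7-fold lower in aorta. FOXQ1, a forkhead factor that mouse gastric pit cells need for mucin production, had no read in aorta, against 321, 322 and 471 FPKM in stomach, and was at least 138-fold lower. FOXA1, a pioneer factor of the endoderm, had no read in aorta, against 167, 140 and 174 FPKM in stomach, and was at least 96.3-fold lower. None of these 3 genes was detected in any aorta library, while the stomach libraries lay close together. UCP2, a carrier of the inner mitochondrial membrane, averaged 11 ± 8.9 FPKM in aorta and 917 ± 93.8 in stomach (difference -6.77), and ATP1B1, a subunit of the sodium pump, averaged 80.8 ± 41.4 FPKM in aorta and 2849 ± 395 in stomach (-5.27). The gap junction protein GJB1 (-5.94) and the transporter-like MFSD4A (-5.30) also belonged to these 12.

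Smooth muscle contractile genes were mostly higher in aorta. Of 15 in the table, 12 were tested, 7 rose, 2 fell and 3 were not called, against 10.8% higher and 10.5% lower over all genes tested. Their median difference was 1.09, against 0 for all genes tested. The number called higher was 3 with a pseudocount of 5, 5 with TPM scaling and 8 with median-ratio scaling. SMTN, the actin-binding protein smoothelin, was at 94.4, 83.4 and 135 FPKM in aorta, against 15.4, 19.8 and 12.2 FPKM in stomach (difference 2.64, limma adjusted p = 0.00024). MYLK, the kinase that starts contraction by phosphorylating myosin light chain, was at 14.1, 24.3 and 25.9 FPKM in aorta, against 1.82, 4.0 and 2.95 FPKM in stomach (2.51, adjusted p = 4.15e-05). For both genes every aorta library exceeded every stomach library several-fold. MYH11, the smooth muscle myosin heavy chain, was at 38.8, 34.8 and 46.5 FPKM in aorta, against 25.1, 19.0 and 13.9 FPKM in stomach, a difference of 1.04 (adjusted p = 0.0149). The groups of MYH11 did not overlap, but the call ended without aorta replicate 3 (0.93, adjusted p = 0.0645), stomach replicate 3 (0.83, 0.0787) or aorta replicates 1 and 3 (0.85, 0.246). The Z-line proteins PDLIM3 (1.28) and NEXN (1.63) rose, and were not called in the fit of 6 libraries (adjusted p = 0.0725 and 0.0958) or without aorta replicates 1 and 3 (1.35, 0.0562, and 0.96, 0.135). MYL9, the regulatory light chain, rose by 1.00 on 6 aorta reads and 1 stomach read. Its difference was 0.77 without aorta replicate 1, 0.99 without aorta replicate 2, and 0.81 without stomach replicate 2 or 3, all under the minimum of 1.

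The remaining contractile genes fell or were not called. DES, the intermediate filament protein desmin of muscle, was at 1.07, 0 and 0 FPKM in aorta, against 4.57, 5.36 and 1.65 FPKM in stomach, so the groups were apart on 1 and 8 reads. It fell by 1.83 (limma adjusted p = 0.00106), and its adjusted p was 0.0647 in the fit of 6 libraries. TPM1, a tropomyosin along the actin filament and the most highly read member, averaged 1050 ± 91.5 FPKM in aorta and 1224 ± 169 in stomach (difference -0.22, 95% interval -0.67 to 0.24). TPM2 averaged 23.4 ± 11.3 FPKM in aorta and 11.3 ± 5.03 in stomach (0.95, adjusted p = 0.199), and PGM5, a protein of muscle adhesion sites, 26.1 ± 5.11 FPKM in aorta and 11.2 ± 1.65 in stomach (1.14, adjusted p = 0.0891). The list's summed level was 1264 to 1563 FPKM in aorta and 1265 to 1635 FPKM in stomach, so the groups overlapped in the sum, in which TPM1 has by far the greatest share. Of the 9 calls, 5 were also made in the fit of 6 libraries (ACTA2, ACTG2, MYH11, MYLK and SMTN) and 5 without aorta replicates 1 and 3 (ACTA2, DES, MYL9, MYLK and SMTN).

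**Figure D3:**
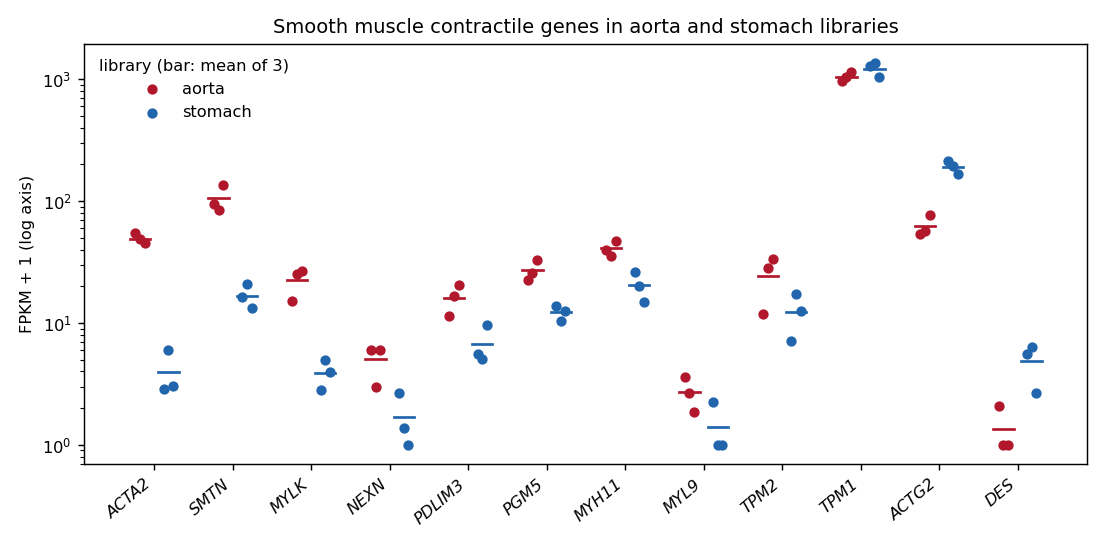
FPKM + 1 of 12 smooth muscle contractile genes on a log axis, with each of the 3 aorta libraries left of the 3 stomach libraries and a bar at the mean of each group. ACTA2, SMTN and MYLK are separated most, TPM1 overlaps at about the same level, and ACTG2 and DES are higher in stomach.

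Among 10 tested regulators of smooth muscle transcription (14 in the table), 4 rose and 1 fell, with a median of 0.48. The number that fell is near the 10.5% lower over all genes tested, where 10.8% were higher. PRDM6, a repressor expressed in smooth muscle, was at 27.2, 35.8 and 45.5 FPKM in aorta, against 1.34, 1.77 and 1.82 FPKM in stomach (difference 3.79, limma adjusted p = 6.58e-10). MEF2C averaged 79.1 ± 17.2 FPKM in aorta and 17.0 ± 4.55 in stomach (2.16), and MEF2A 125 ± 9.70 FPKM in aorta and 34.3 ± 4.97 in stomach (1.85). Both are muscle transcription factors of one family, and neither overlapped between the groups. TEAD1, a factor of the Hippo pathway, rose by 1.44, and the call ended without aorta replicate 1 (1.34, adjusted p = 0.0768), aorta replicate 3 (1.44, 0.0598), stomach replicate 1 (1.20, 0.106) or stomach replicate 2 (1.35, 0.0739). KLF4, which represses contractile genes in muscle and is also a factor of gastric and squamous epithelium, was at 27.8, 26.0 and 39.7 FPKM in aorta, against 208, 215 and 257 FPKM in stomach (-2.84, adjusted p = 0.000363). SRF itself averaged 190 ± 27.5 FPKM in aorta and 137 ± 14.7 in stomach (0.46, adjusted p = 0.0622), with no overlap between the groups, and GATA6 differed by 0.50 (adjusted p = 0.434).

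Cytoskeletal and adhesion genes of muscle rose in most cases. Of 27 in the table, 18 were tested, 11 rose and 1 fell, with a median of 1.61; the fit of 6 libraries called 7 higher. MYH10, a non-muscle myosin heavy chain, averaged 33.0 ± 6.39 FPKM in aorta and 0.843 ± 0.798 in stomach (difference 4.27, limma adjusted p = 4.09e-07). ACTN1, the actin cross-linker of adhesion sites, was at 326, 430 and 423 FPKM in aorta, against 57.3, 71.7 and 40.4 FPKM in stomach (2.80). CAVIN1, which shapes caveolae, averaged 50.2 ± 8.97 FPKM in aorta and 6.69 ± 1.36 in stomach (2.73). VCL, whose promoter is shown above, was at 206, 230 and 283 FPKM in aorta, against 90.9, 102 and 52.0 FPKM in stomach (1.59, adjusted p = 0.000192). The integrin-linked kinase ILK (1.98) and dystrophin, DMD (1.82), rose likewise, and in each of these genes the groups did not overlap. TPM3, a tropomyosin of non-muscle cells as well, fell by 1.88 (22.4 ± 3.04 FPKM in aorta and 84.6 ± 1.67 in stomach). MYH9, the other abundant non-muscle myosin, averaged 23.4 ± 0.413 FPKM in aorta and 40.5 ± 8.48 in stomach, with an adjusted p of 0.0334 but a difference of -0.74, and so was not called. The cytoplasmic actin ACTG1 overlapped between the groups (0.61, adjusted p = 0.634).

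Receptors, channels and second messengers that set muscle tone were higher in aorta in 12 of 21 tested genes (31 in the table), and 1 was lower. The shares over all genes tested were 10.8% higher and 10.5% lower. ITPR1, the calcium release channel of the reticulum in smooth muscle, was at 27.7, 26.5 and 31.2 FPKM in aorta, against 4.83, 3.34 and 2.24 FPKM in stomach (difference 2.76, limma adjusted p = 7.65e-05). Its relative ITPR3, a form found in secretory epithelia, was at 2.65, 2.04 and 0.795 FPKM in aorta, against 18, 11.9 and 12.6 FPKM in stomach (-2.46, adjusted p = 2.75e-06). Each form was thus higher in one tissue with no overlap. PRKG1, the cyclic GMP-dependent kinase that relaxes muscle, averaged 27.1 ± 11.4 FPKM in aorta and 4.19 ± 3.07 in stomach (2.52). The serotonin receptor HTR2A, which constricts arteries, was at 2.17, 3.35 and 2.61 FPKM in aorta and had no read in stomach, at least 1.48-fold higher at a floor of 3 reads per library. CACNA2D1, a calcium channel subunit, rose by 1.85. The calcium pump of the plasma membrane ATP2B1 (-0.48, adjusted p = 0.107) and the channel subunit CACNB3 (-0.20, adjusted p = 0.76), were the most highly read members without a call. Most of these genes were low, and with a pseudocount of 5 in place of 1 the list had 3 genes called higher.

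Extracellular matrix genes rose in 9 of 19 tested (43 in the table), and none fell. Their median difference was 1.10, and their summed level was 1359 to 1430 FPKM in aorta, against 199 to 206 FPKM in stomach. Next to FBLN5, the metalloproteinase inhibitor TIMP3 was at 190, 224 and 203 FPKM in aorta, against 4.46, 12.4 and 11.3 FPKM in stomach (difference 4.42, limma adjusted p = 1.47e-06). ITGBL1, an integrin-like secreted protein, was at 13.8, 11.7 and 15.4 FPKM in aorta and had no read in stomach, at least 4.0-fold higher. LTBP1, which holds latent TGF-beta in the matrix, averaged 20.2 ± 3.71 FPKM in aorta and 1.6 ± 0.962 in stomach (3.09). The collagen COL1A1 averaged 182 ± 15 FPKM in aorta and 33.5 ± 5.70 in stomach (2.41), and the collagen-binding SPARC 648 ± 59.9 FPKM in aorta and 113 ± 5.51 in stomach (2.51). LOXL1, a cross-linking enzyme of elastic fibres, was at 6.48, 11.7 and 2.43 FPKM in aorta and had no read in stomach. The metalloproteinase MMP14 (0.14, adjusted p = 0.904) and the small proteoglycan ASPN (1.23, adjusted p = 0.0707) were not called.

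Fibroblast genes went the same way in part, with 4 of 8 tested higher, 4 not called and none lower. Of the 15 in the table, 7 had no read in aorta and 7 had none in stomach. PRRX1, a homeobox factor of mesenchyme, was at 112, 71.4 and 99.2 FPKM in aorta, against 9.47, 1.39 and 0.856 FPKM in stomach (difference 4.70). TWIST1, a basic helix-loop-helix factor of mesenchyme, was at 121, 99.8 and 110 FPKM in aorta, against 2.10, 5.54 and 6.82 FPKM in stomach (4.36), and its relative TWIST2 rose by 2.75 (2.34, adjusted p = 0.111, without aorta replicates 1 and 3). TWIST1 and PRRX1 were far above every stomach library in each aorta library. SFRP1 (0.43, adjusted p = 0.544) and the growth factor IGF1 (0.01, adjusted p = 1) were not called.

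HOX genes, which mark position along the body axis, were higher in aorta in 18 of the 25 tested (30 in the table), and none was lower. Their median difference was 2.49, and their summed level was 1071 to 1310 FPKM in aorta, against 157 to 349 FPKM in stomach. HOXC10 was at 39.0, 30.6 and 51.3 FPKM in aorta and HOXC9 at 27.8, 28.4 and 32.7 FPKM, and neither had a read in stomach (differences 5.34 and 4.93, limma adjusted p = 8.3e-13 and 9.11e-13). At a floor of 3 reads per library they were at least 3.93-fold and 4.31-fold higher in aorta. HOXA6 averaged 38.5 ± 0.816 FPKM in aorta and 1.25 ± 2.16 in stomach (4.56), and HOXB9 27.3 ± 8.25 FPKM in aorta and 0.388 ± 0.672 in stomach (4.40). HOXA7 (3.75) and HOXA11 (2.96, with no stomach read) also kept their calls in every alternative that tested them.

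Not all HOX genes followed. HOXC4 was at 48.1, 37.5 and 48.2 FPKM in aorta, against 68.3, 37.1 and 29.9 FPKM in stomach (difference 0.06, 95% interval -0.84 to 0.96), and HOXC5 at 19.4, 26.0 and 38.9 FPKM in aorta, against 44.5, 105 and 11.5 FPKM in stomach (-0.48). The HOXC cluster thus held genes with overlapping levels at its group 4 and 5 members and genes without a stomach read at groups 9 and 10. In the HOXD cluster only HOXD9 was called (3.13), and it was read in all aorta libraries at 20.6, 1.24 and 12.9 FPKM and in no stomach library. Its difference was 1.16 (adjusted p = 0.196) without aorta replicates 1 and 3. HOXA5, the most highly read member, averaged 392 ± 39.8 FPKM in aorta and 70.2 ± 17.1 in stomach (2.49, and 2.36 with an adjusted p of 0.127 without aorta replicates 1 and 3). Of the 18 calls, 12 were also made in the fit of 6 libraries and 8 without aorta replicates 1 and 3, and a pseudocount of 0.1 gave 10. HOX clusters carry overlapping antisense transcripts, and it is not stated whether counting used strand.

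**Figure D4:**
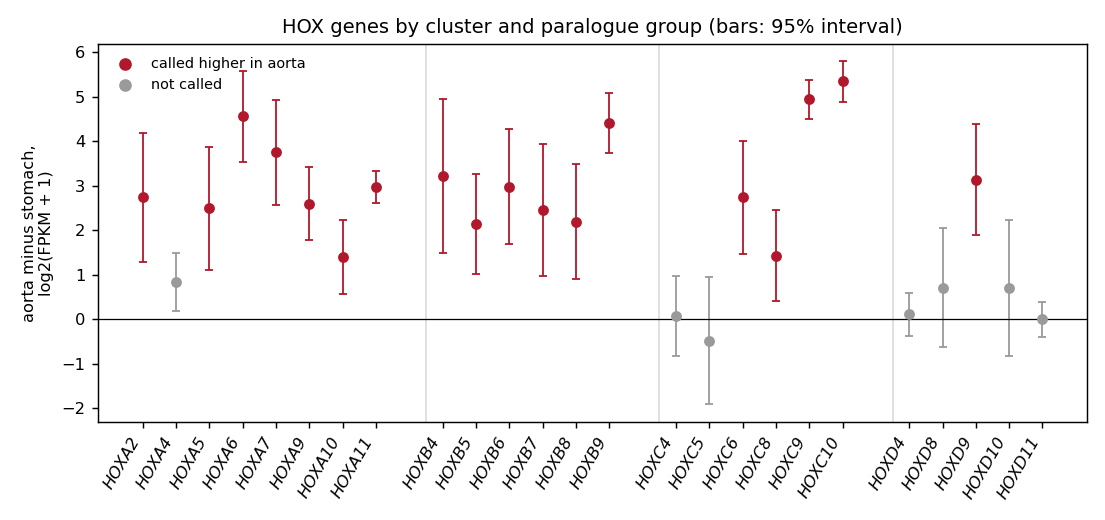
Aorta minus stomach difference of 25 HOX genes on the log2(FPKM + 1) scale, ordered by cluster and paralogue group, with 95% intervals. The 18 genes called higher in aorta lie between 1.39 and 5.34, and the 7 others, HOXC4 and HOXC5 among them, lie between -0.48 and 0.84.

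Other factors that pattern mesoderm divided between the tissues. Of 38 tested (53 in the table), 11 rose and 7 fell, with a median of 0. All genes tested together had 10.8% called higher and 10.5% lower. OSR1, a zinc finger factor of the intermediate and lateral mesoderm, was at 106, 93.8 and 102 FPKM in aorta, against 1.12, 1.97 and 4.86 FPKM in stomach (difference 4.93, limma adjusted p = 3.01e-06). FOXC1, a forkhead factor of vascular and neural crest mesenchyme, was at 27.8, 23.3 and 28.5 FPKM in aorta, against 0, 0.755 and 0 FPKM in stomach (4.51). ZEB1 (2.28) and ZEB2 (1.88), repressors of epithelial genes, and DLX5 (2.97) also rose. On the side of stomach, PITX1, a homeobox factor of hindlimb and foregut mesenchyme and of oral epithelium, had no read in aorta, against 38.0, 38.6 and 34.9 FPKM in stomach (-5.25), at least 6.08-fold lower. BARX1, which in the mouse is needed in stomach mesenchyme for gastric fate of the epithelium, had no read in aorta or in any other tissue but stomach, where it was at 9.05, 35.8 and 22.1 FPKM (-4.35). SIX2, known in the mouse from the pyloric mesenchyme, fell by 2.75, and SOX9, which had no aorta read, by 2.79. NR2F2, a nuclear receptor of vein and visceral mesenchyme, was at 138 ± 15.1 FPKM in aorta and 148 ± 8.12 in stomach (-0.10, 95% interval -0.58 to 0.38), and FOXP1 differed by -0.39 (adjusted p = 0.306).

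Signalling genes of development were called in both directions, with 13 higher and 6 lower among 44 tested (66 in the table). Over all genes tested 10.8% were higher and 10.5% lower, and the number of signalling genes called lower is near that share. The fit of 6 libraries called 11 higher and 4 lower. Among ligands of the TGF-beta family, TGFB3 averaged 85.7 ± 11.3 FPKM in aorta and 4.79 ± 3.05 in stomach (difference 4.07), and INHBA, an activin subunit, 17.2 ± 5.85 FPKM in aorta and 0.304 ± 0.527 in stomach (3.81). BMP4 was at 679, 610 and 258 FPKM in aorta, against 97.4, 108 and 143 FPKM in stomach (2.04, limma adjusted p = 0.000692). BMP2 ran the other way, at 0, 4.59 and 0.681 FPKM in aorta, against 30.8, 26.3 and 25.1 FPKM in stomach (-3.75, adjusted p = 4.42e-05). These 2 related ligands were thus each higher in a different tissue, without overlap. The WNT ligand WNT11 was at 0, 1.85 and 1.93 FPKM in aorta, against 35.4, 49.2 and 51.7 FPKM in stomach (-4.50). The hedgehog ligand SHH, made by gut epithelium, had no read in aorta, against 4.33, 3.05 and 4.69 FPKM in stomach (-2.31, at least 4.44-fold lower). The hedgehog receptor PTCH1 (0.20, adjusted p = 0.762) and the transducer SMO (0.17, adjusted p = 0.855) overlapped between the tissues, while HHIP, a decoy receptor of the ligand, rose by 2.48. The inhibitor SMAD7 (0.53, adjusted p = 0.203) and the receptor FZD4 (-0.07, adjusted p = 0.982) were not called. Without aorta replicates 1 and 3, 7 signalling genes were higher.

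Epithelial genes were nearly all lower in aorta. Of 7 general epithelial genes tested (16 in the table) 6 fell, of 6 squamous forestomach genes (11) all 6 fell, of 9 foregut endoderm factors (13) 6 fell, and none of these rose. The medians were -2.84, -4.72 and -2.46. ESRP1, the splicing regulator of epithelial cells, had no read in aorta, against 93.6, 69.4 and 53.6 FPKM in stomach (difference -6.16, limma adjusted p = 8.93e-11), at least 39.8-fold lower. FOXA2, a sister of FOXA1, had no read in aorta, against 58.3, 44.8 and 71.3 FPKM in stomach (-5.86), and KLF5, a factor of gut epithelium, averaged 0.455 ± 0.394 FPKM in aorta and 23.5 ± 4.03 in stomach (-4.10). In all of these the tissues were fully apart. SFN, the 14-3-3 protein of squamous epithelium, averaged 3.60 ± 3.04 FPKM in aorta and 208 ± 46.4 in stomach (-5.67). The basal keratins KRT14 and KRT17 had no read in aorta, and in stomach were at 35.5, 31.3 and 4.53 FPKM and at 56.3, 57.5 and 14.7 FPKM (-4.22 and -5.23). Stomach replicate 3 was the lowest in both, as in the summed level of the squamous list, at 1.84 to 7.11 FPKM in aorta and 387, 352 and 220 FPKM in stomach. KRT8, a keratin of simple epithelium, had few reads in either tissue (0.37), and keratins share sequence, so their reads are uncertain.

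The glandular cell types of the stomach were seen through few genes. Of 5 parietal cell genes tested (9 in the table), 3 fell. ESRRG, a nuclear receptor of acid-secreting cells, was at 0.451, 0.580 and 0.602 FPKM in aorta, against 95.3, 97.6 and 102 FPKM in stomach (difference -6.01, limma adjusted p = 1.64e-11), and the chloride transporter SLC26A9 had no read in aorta, against 20.5, 28.0 and 18.4 FPKM in stomach (-4.52, at least 15.1-fold lower). Of 6 endocrine cell genes tested (9 in the table), 5 fell. INSM1, a zinc finger factor of endocrine differentiation, had no read in aorta, against 19.2, 10.6 and 16.9 FPKM in stomach (-4.01), and ISL1 averaged 4.28 ± 2.16 FPKM in aorta and 26.1 ± 4.45 in stomach (-2.42). Of the pit cell genes only FOXQ1 was tested, and of the 2 chief and neck cell genes tested neither was called (XBP1, -1.34, adjusted p = 0.0923).

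**Figure D5:**
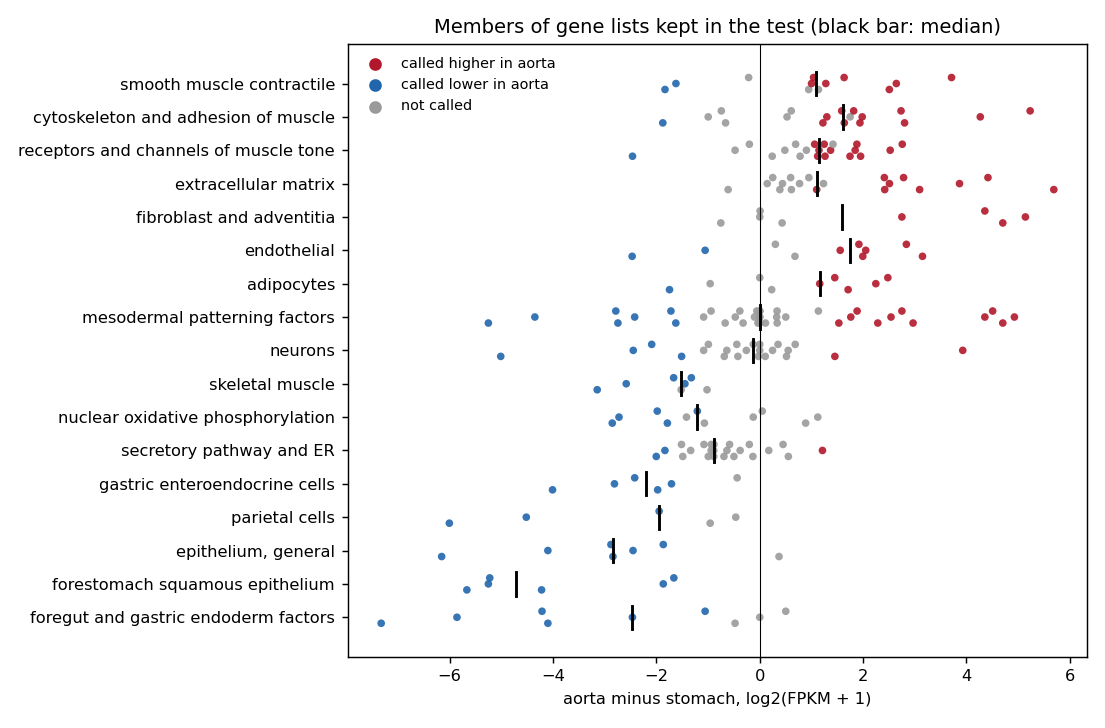
Aorta minus stomach differences, on the log2(FPKM + 1) scale, of the tested members of 17 gene lists, with a black bar at each median. Muscle cytoskeleton, matrix and fibroblast lists lie mostly right of 0 (medians 1.61, 1.10 and 1.59), epithelial lists lie left of it (medians -2.84 and -4.72 for general and squamous genes), and mesodermal patterning factors spread to both sides.

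Of 11 nuclear genes of oxidative phosphorylation tested (24 in the table), 5 fell and none rose, with a median of -1.21. The fit of 6 libraries and median-ratio scaling each called 1 higher and 4 lower, while TPM scaling called 6 lower and none higher. Of the 24, 3 had no read in aorta and 12 had none in stomach. ATP5F1B, the catalytic subunit of ATP synthase, was at 214, 295 and 222 FPKM in aorta, against 865, 990 and 1021 FPKM in stomach (difference -1.98, limma adjusted p = 5.93e-09). SLC25A5, an ADP/ATP carrier, averaged 52.3 ± 5.88 FPKM in aorta and 383 ± 21.5 in stomach (-2.85), and NDUFS1 of complex I 9.15 ± 1.48 FPKM in aorta and 34.0 ± 4.41 in stomach (-1.79). NDUFV2, also of complex I, overlapped between the tissues (0.05, 95% interval -1.80 to 1.89). Of 23 genes of the secretory pathway tested (31 in the table), 2 fell and 1 rose, with a median of -0.89, which in either direction is no larger a share than the 10.5% lower and 10.8% higher over all genes tested. SERP1, which protects proteins at the translocon, fell by 1.84, and SYT7, a calcium sensor of exocytosis, by 2.00. The vesicle GTPases RAB1A (-0.50, adjusted p = 4.24e-06) and ARF4 (-0.69, adjusted p = 0.000208) passed the p threshold but not the minimum difference, with 2419 ± 119 FPKM in aorta and 3419 ± 109 in stomach for RAB1A.

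Cells that share the walls of both organs gave mixed results. Of 10 endothelial genes tested (14 in the table), 6 rose and 2 fell, against 10.8% and 10.5% of all genes tested. LMO2 averaged 28.9 ± 12.5 FPKM in aorta and 2.36 ± 1.58 in stomach (difference 3.15, limma adjusted p = 0.000751), and GATA2 12.8 ± 4.46 FPKM in aorta and 1.10 ± 1.21 in stomach (2.84), both being transcription factors or cofactors of endothelium and blood. The angiopoietin receptor TEK was at 3.54, 7.79 and 3.03 FPKM in aorta, against 0, 1.26 and 0 FPKM in stomach (2.05). MECOM, a zinc finger factor of arterial endothelium that epithelia also express, was at 36.9, 33.9 and 37.5 FPKM in aorta, against 241, 196 and 180 FPKM in stomach (-2.47). The summed endothelial level was 240 to 374 FPKM in aorta and 232 to 329 FPKM in stomach. The transcript SENCR of the transgene is antisense to FLI1, the ETS factor of endothelium. It is not stated whether counting used strand, so reads of either gene can have been counted for the other. FLI1 and SENCR both differed by 1.92 (limma adjusted p = 0.012 and 0.0194). Without aorta replicate 1 they differed by 1.64 (0.0617) and 1.63 (0.0865), without stomach replicate 2 by 1.54 (0.0725) and 1.46 (0.11), SENCR without aorta replicate 3 by 1.89 (0.0523), and without aorta replicates 1 and 3 by 1.53 (0.238) and 1.29 (0.378).

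Few nerve genes were called, and not in 1 direction. Of 23 neuronal genes tested (30 in the table), 2 rose and 4 fell, with a median of -0.12. Over all genes tested, 10.8% were called higher and 10.5% lower, so these few calls do not set the list apart. Without aorta replicate 2 or aorta replicate 3, 1 was higher and 2 were lower, without stomach replicate 1 or stomach replicate 3, 1 and 3, and in the fit of 6 libraries, 1 and 1. TAC1, the precursor of the enteric transmitter substance P, had no read in aorta, against 16.1, 53.9 and 34.9 FPKM in stomach (difference -5.01, limma adjusted p = 8.9e-09), at least 5.19-fold lower. MAP1B, a microtubule protein of axons that other cells also make, was at 41.7, 57.6 and 50.8 FPKM in aorta, against 2.30, 1.52 and 3.42 FPKM in stomach (3.93). SNAP25, a protein of synaptic vesicle release, was at 31.4, 1.51 and 0 FPKM in aorta, against 21.2, 28.4 and 19.3 FPKM in stomach (-2.45, adjusted p = 0.0152). Aorta replicate 1 was above every stomach library for SNAP25 and the other aorta libraries were far below, and the call ended without aorta replicate 2 (-2.06, 0.0738), aorta replicate 3 (-1.39, 0.125) or stomach replicate 2 (-2.29, 0.0527). The same library was the highest of the aorta group in the summed neuronal level (137, 86.2 and 61.7 FPKM in aorta, against 99.4, 114 and 102 FPKM in stomach) and in the summed glial level (136, 36.7 and 83.0 FPKM in aorta, against 59.7, 48.9 and 45.0 FPKM in stomach). Of the interstitial cells of Cajal, the pacemakers of the gut, only KIT and ETV1 were tested, and neither was called (-0.25 and 0.15, adjusted p = 0.72 and 0.891), at under 4 FPKM in each of the 6 libraries.

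Adipocyte genes were higher in aorta in part, and skeletal muscle genes were high in single stomach libraries. Of 9 adipocyte genes tested (13 in the table), 5 rose and 1 fell, against 10.8% higher and 10.5% lower over all genes tested. The number that fell is near that share. CEBPA averaged 79.8 ± 26.9 FPKM in aorta and 13.1 ± 1.62 in stomach (difference 2.48), while PPARG averaged 8.10 ± 6.74 FPKM in aorta and 26.3 ± 13.2 in stomach (-1.75, limma adjusted p = 0.0421). Both are adipocyte transcription factors that other cells also use. The PPARG call ended without aorta replicate 2 (-1.68, 0.0998), aorta replicate 3 (-1.24, 0.209), stomach replicate 1 (-1.38, 0.169) or stomach replicate 2 (-1.81, 0.0747), and in the fit of 6 libraries 2 of the 5 rises were called. Skeletal muscle genes summed to 2.95, 0 and 1.62 FPKM in aorta, against 27.2, 120 and 1.34 FPKM in stomach, so stomach replicate 2 was far above the rest. The 5 of 7 tested that fell, the fast myosin MYH4 among them (0, 0 and 0 FPKM in aorta, against 6.34, 28.4 and 0 FPKM in stomach), became 1 call without stomach replicate 2 and 0 calls in the fit of 6 libraries. None of 16 cardiac muscle genes was called, and 9 of them had no read in the 6 libraries.

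Of 9 leukocyte genes tested (14 in the table), 1 rose and 1 fell, shares near the 10.8% and 10.5% of all genes tested. EBF1, a factor of B cells and of mesenchymal cells, averaged 5.94 ± 1.15 FPKM in aorta and 0.416 ± 0.265 in stomach (difference 2.30), BCL11A, a factor of lymphoid and other cells, 0.515 ± 0.435 FPKM in aorta and 22.9 ± 6.15 in stomach (-3.98), and SPI1, the myeloid factor PU.1, was not called (0.16, limma adjusted p = 0.891). Among 24 tested immediate early and stress-induced genes 3 rose and 3 fell, again near the shares of all genes. DUSP1, a phosphatase of MAP kinases, was at 102, 104 and 89.9 FPKM in aorta, against 3.40, 8.97 and 11 FPKM in stomach (3.62, adjusted p = 0.00129), and SOCS3, a feedback inhibitor of cytokine signalling, averaged 9.60 ± 5.09 FPKM in aorta and 43.5 ± 5.64 in stomach (-2.17, adjusted p = 0.000396). Of 7 proliferation genes tested 2 fell. The number was 1 in the fit of 6 libraries and without aorta replicate 2, aorta replicate 3 or stomach replicate 2. It was also 1 with a pseudocount of 0.1, no filter, TPM scaling, median-ratio scaling or limma voom on recovered reads. With the filter at 5 FPKM it was 3. The histone variant H2AZ1 averaged 1656 ± 156 FPKM in aorta and 4222 ± 511 in stomach (-1.35).

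Mitochondrially encoded genes were called higher in aorta in 7 of 11 tested, and in none without aorta replicates 1 and 3. ND4, of complex I, was at 138, 3.37 and 77.0 FPKM in aorta, against 0, 2.18 and 2.69 FPKM in stomach, so aorta replicate 2 lay beside the stomach libraries. Of 44 cytosolic ribosomal protein genes tested (72 in the table) 11 rose and none fell, 3 of them also in the fit of 6 libraries and 2 also without aorta replicates 1 and 3. The count was 2 without aorta replicate 1, 7 without aorta replicate 3, 2 with a pseudocount of 5, and 0 with the filter at 5 FPKM or with limma voom on recovered reads. RPS12, at 4.79, 4.62 and 9.59 FPKM in aorta and no read in stomach, is typical of their low levels. The most highly read members without a call were RPS27, at 15687 ± 834 FPKM in aorta and 19655 ± 2114 in stomach (difference -0.32, limma adjusted p = 0.185) and RPLP0, at 2281 ± 462 FPKM in aorta and 4150 ± 169 in stomach (-0.88, adjusted p = 8.11e-05, under the minimum difference).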

How the data were processed

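The design text describes biological triplicates. Sample titles gave the tissue and the replicate number. Total RNA was extracted with TRIzol and made into libraries with a VAHTS Universal V10 kit, per the labels' protocols. The submitters' processing notes name fastp, HISAT2 and HTSeq, without versions, and the human build GRCh38.p13. Annotation and strand setting are not given in the sources. The authors deposited FPKM of 7493 genes, 91.4% of which have a mouse gene of the same symbol, ignoring case. Since the samples are mouse and the build is human, a value depends on how alike the genes of the 2 species are, and reads of paralogues (actins, myosins, tropomyosins, keratins) can be misassigned.

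Whole reads were recovered from the deposited FPKM steps for 100% of genes (relative tolerance 1e-07), with too low a number where all counts of a gene share a factor. Values were taken as log2(FPKM + 1), which understates changes of low genes. Tested were the 4260 genes reaching 1 FPKM in 3 of 24 libraries. limma 3.58.1 in R 4.3.3 fitted a mean for each of 8 tissues (empirical Bayes with trend), with Benjamini-Hochberg adjustment over all 4260 genes. Calls needed an adjusted p below 0.05 and a difference of 1 or more. The fit was tested on simulated data. Where a tissue had no read, the floor was 3 reads per library. Python 3.11.15 with pandas 2.3.3 and scipy 1.17.1 did the rest.

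A rule picked all tested contractile genes, the 12 largest non-overlapping differences in each direction, SENCR and FLI1. It also picked up to 4 called and 2 uncalled members of each of 31 lists, 161 genes in all. A further 90 genes were chosen after their values were seen. These were further list members, NTF3, NTRK3, NNAT and 4 more genes of the closing section. Not all of the genes picked are written out above, and the list paragraphs do not mark which were chosen later. The comparison and the lists were chosen with earlier results of these data known.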

Additional observations from a re-analysis of the deposited data

How the results depend on the processing

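Of 161 genes picked by the rule, 109 were called, and 71 kept the call in every alternative that tested them. COX3, a mitochondrially encoded gene, differed by 3.69, and by -0.76 without aorta replicates 1 and 3, a setting chosen after seeing the data. No other gene picked by the rule reversed, and the genes chosen later were not part of this count. A pseudocount of 5 gave 253 higher and 277 lower, since it shrinks differences of low genes under the minimum, and leaving out aorta replicates 1 and 3 gave 287 higher. The other counts stayed within 1.5 times: 431 and 441 with a pseudocount of 0.1, 442 and 401 with no filter, 369 and 411 at 5 FPKM, 424 and 482 as TPM, 425 and 521 with limma voom on recovered reads. Leaving out 1 library gave 394 to 435 higher and 369 to 428 lower. Replicate numbers share no stated source, and same-numbered libraries correlated at 0.0233, 0.0182 and 0.00757 in their deviations; aorta replicate 3 correlated better with stomach replicate 2 (0.0166). With the number as a block, 468 were higher and 443 lower. The ACTG2 to ACTA2 ratio within a library differed by -5.66 to -5.06 without 1 library and by -5.75 with a pseudocount of 0.1. Depth limits low genes: 41 genes called higher rest on under 10 aorta reads and 23 called lower on under 10 stomach reads. A further 721 genes did not overlap between the tissues and were not called.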

Other observations

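A neurotrophin and its receptor were both among the genes highest in aorta, chosen here after their values were seen. NTF3, neurotrophin-3, was at 102, 121 and 105 FPKM in aorta, against 0, 5.38 and 24.3 FPKM in stomach (difference 4.34, limma adjusted p = 0.000836), and its adjusted p was 0.0706 in the fit of 6 libraries. NTRK3, its receptor TrkC, was at 26.4, 26.3 and 40.9 FPKM in aorta, against 0.108, 0.476 and 0.117 FPKM in stomach (4.69, adjusted p = 4.35e-11), on 1238 aorta and 7 stomach reads. Both had their highest mean of the 8 tissues in aorta, and brain had the second highest NTRK3, at 9.85 FPKM. NNAT, the imprinted proteolipid neuronatin of brain and endocrine cells, was at 1064, 330 and 517 FPKM in aorta, against 38.0, 38.2 and 82.4 FPKM in stomach (3.50, adjusted p = 0.00156), and differed by 2.72 (adjusted p = 0.11) without aorta replicates 1 and 3. Aorta replicate 1, the library with the highest summed neuronal and glial level of the 3, was also the highest for NNAT but not for NTF3 or NTRK3.

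A further 4 genes lower in aorta are given here, chosen after their values were seen. STARD10, a phospholipid transfer protein, averaged 93.4 ± 17.1 FPKM in aorta and 2664 ± 514 in stomach (difference -4.82, limma adjusted p = 1.42e-12). GMDS, which makes GDP-fucose, averaged 3.52 ± 2.01 FPKM in aorta and 111 ± 17 in stomach (-4.74), and GALNT7, which adds sugars to mucins, 2.76 ± 0.404 FPKM in aorta and 104 ± 9.46 in stomach (-4.80). The chloride importer SLC12A2 averaged 0.950 ± 0.342 FPKM in aorta and 39.5 ± 13.6 in stomach (-4.33). In each of these 4 genes the tissues did not overlap, and each kept its call in every alternative run.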
